A study of Macaca mulatta with 95 samples.

Results

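RNA of the 4 DNA methyltransferase genes DNMT1, DNMT3A, DNMT3B and DNMT3L was followed through 95 single cells of rhesus macaque (Macaca mulatta) embryos before implantation. The members are the rows of those symbols, 4 of the 16049 genes in the deposited expression table. Oocytes of hormone-stimulated females were fertilised and the embryos grown in culture, and all groups share this history, with no genetic change or drug treatment named in the labels. The outer cells of an embryo were marked with a membrane dye before the cells were separated, so outer and inner record dye uptake and not lineage. Each cell was amplified and sequenced as a library of its own. From the 16-cell stage (day 3) came 3 outer and 2 inner cells, and from early morulae (day 4) and late morulae (day 4.5) 5 of each position. Early blastocysts (day 5) added 6 outer and 10 inner cells, middle blastocysts (day 5.5) 5 outer and 12 inner cells. The 19 cells of late blastocysts (day 6) and the 18 of hatched blastocysts (day 7) were all inner.

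DNA methyltransferases place methyl groups on cytosines of the DNA. DNMT1 copies the pattern of the old strand onto the new one after replication, and its partner UHRF1 guides it there. DNMT3A and DNMT3B set new marks, and DNMT3L, which has no catalytic activity of its own, binds and stimulates them. In mammals the methylation inherited from the gametes is largely lost during cleavage and set anew around implantation, and oocytes carry a store of DNMT1 protein and RNA.

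The labels do not say which cells came from the same embryo, female or culture drop, so a group of cells is treated as 1 sample and its cells are not taken for replicates. No difference between groups carries a test, and every SD is the spread from cell to cell. Levels are given as RPKM (reads per kilobase of gene per megaread), a unit the deposited table does not name. Levels of different genes set side by side rest on the gene lengths behind this scale, which are not given. A difference is the log2 ratio of 2 group means after 1 RPKM was added to each. Genes with a mean of at least 5 RPKM in 1 of the groups were called measured, and a difference of 2-fold or more (1 log2 unit) was called higher or lower. Beside the first count of members in each comparison stands the share of all measured genes past 2-fold, in either direction or, where all such members lay on 1 side, in that direction. Cell titles open with 1 of 5 letters (A, B, D, G or H) that the labels do not explain and that coincide in part with stage, so groups are split by letter and cells are named by group, letter and number, as in EB_inner A-07. The group prefixes are 16C, EM and LM (early and late morula) and EB, MB, LB and HB (early, middle, late and hatched blastocyst).

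Reads recovered from the steps of the values came to between 1.63 and 14.1 megareads per cell, with a median of 8.50. Between 2358 and 7379 genes per cell reached 1 RPKM. For 9 late blastocyst cells the title and the source name disagree on the stage, and the title was kept. They are all 4 late cells of letter H, and LB_inner G-03, G-04, G-16, G-22 and G-27 of letter G. Their source name says hatched blastocyst. All 4 sperm markers were at 0 in every group, both blood markers in the table had means under 1 RPKM, and no cumulus marker averaged 5 RPKM or more in any group. Of 5 fibroblast markers, at most 2 averaged 1 RPKM in any group, and COL1A2 alone reached a mean of 5. Of 13 oocyte markers between 1 and 6 averaged 1 RPKM.

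DNMT1, the maintenance enzyme, was present in all 5 cells of the 16-cell stage. The 3 outer cells held 16.1, 29.6 and 24.7 RPKM, a mean of 23.5 (SD 6.81), and the 2 inner cells held 8.52 and 9.13, a mean of 8.82 (SD 0.433). Each outer cell of that stage was above each inner cell. In early morulae the outer cells held 5.05, 0.0331, 0.2003, 0.0147 and 8.60 RPKM and the inner cells 3.27, 0, 7.21, 0 and 0. Cells well above 1 RPKM and cells close to 0 thus stood side by side in both positions. Late morulae averaged 4.32 RPKM (SD 6.38, n = 5 cells) in outer cells and 9.26 (SD 6.76, n = 5) in inner cells, where the lowest of the 5 was at 2.099.

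In early and middle blastocysts most cells had almost no DNMT1 RNA. Among the 6 outer early blastocyst cells the lowest was 0, the median 0.0258 and the highest 7.01 RPKM. The 5 inner cells of letter A held 0.0538, 0.261, 39.7, 0.0116 and 0 RPKM. One cell therefore sets each mean: without EB_outer A-08 the outer mean was 0.0255 and without EB_inner A-07 the inner mean was 0.0815. The 3 inner cells of letter G held 0.0558, 0.0473 and 0.0292 RPKM. None of the 9 middle blastocyst cells of letter B reached 1 RPKM, and they held 0 to 7 reads of DNMT1 each, against 725 to 2712 reads in the cells of the 16-cell stage, which carry the same letter. In middle blastocysts of letter G the highest of 4 cells was at 2.77 RPKM, and in letter H MB_inner H-09 stood at 10.5 with the other 3 at 1.07 or less.

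In later blastocysts DNMT1 was uneven from cell to cell. In the 15 late blastocyst cells of letter G the lowest value was 0, the median 0.0107 and the highest 56.1 RPKM, and 5 cells were at 5 RPKM or more with the other 10 below 1. In the 4 late blastocyst cells of letter H 1 cell was at 1.19 and the other 3 at 0. Hatched blastocysts had 8 of 9 cells at 1 RPKM or more in each letter. Their median was 12.1 RPKM in letter G, with a range from 0 to 37.0, and 7.25 in letter H, from 0.0114 to 31.5. Over all 95 cells DNMT1 reached 1 RPKM in 44 (46.3%, exact 95% binomial interval 36.0 to 56.8%, counting error only, since cells of an embryo are not independent). Those 44 cells held 62 to 4689 DNMT1 reads, another 29 held 1 to 49, and 22 had no read. In the cells with no read, 3 reads would have given 0.0273 to 0.0515 RPKM, so levels under that limit were not detectable. Oocyte and somatic forms of DNMT1 cannot be told apart in a table with 1 row per gene.

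**Figure D1:**
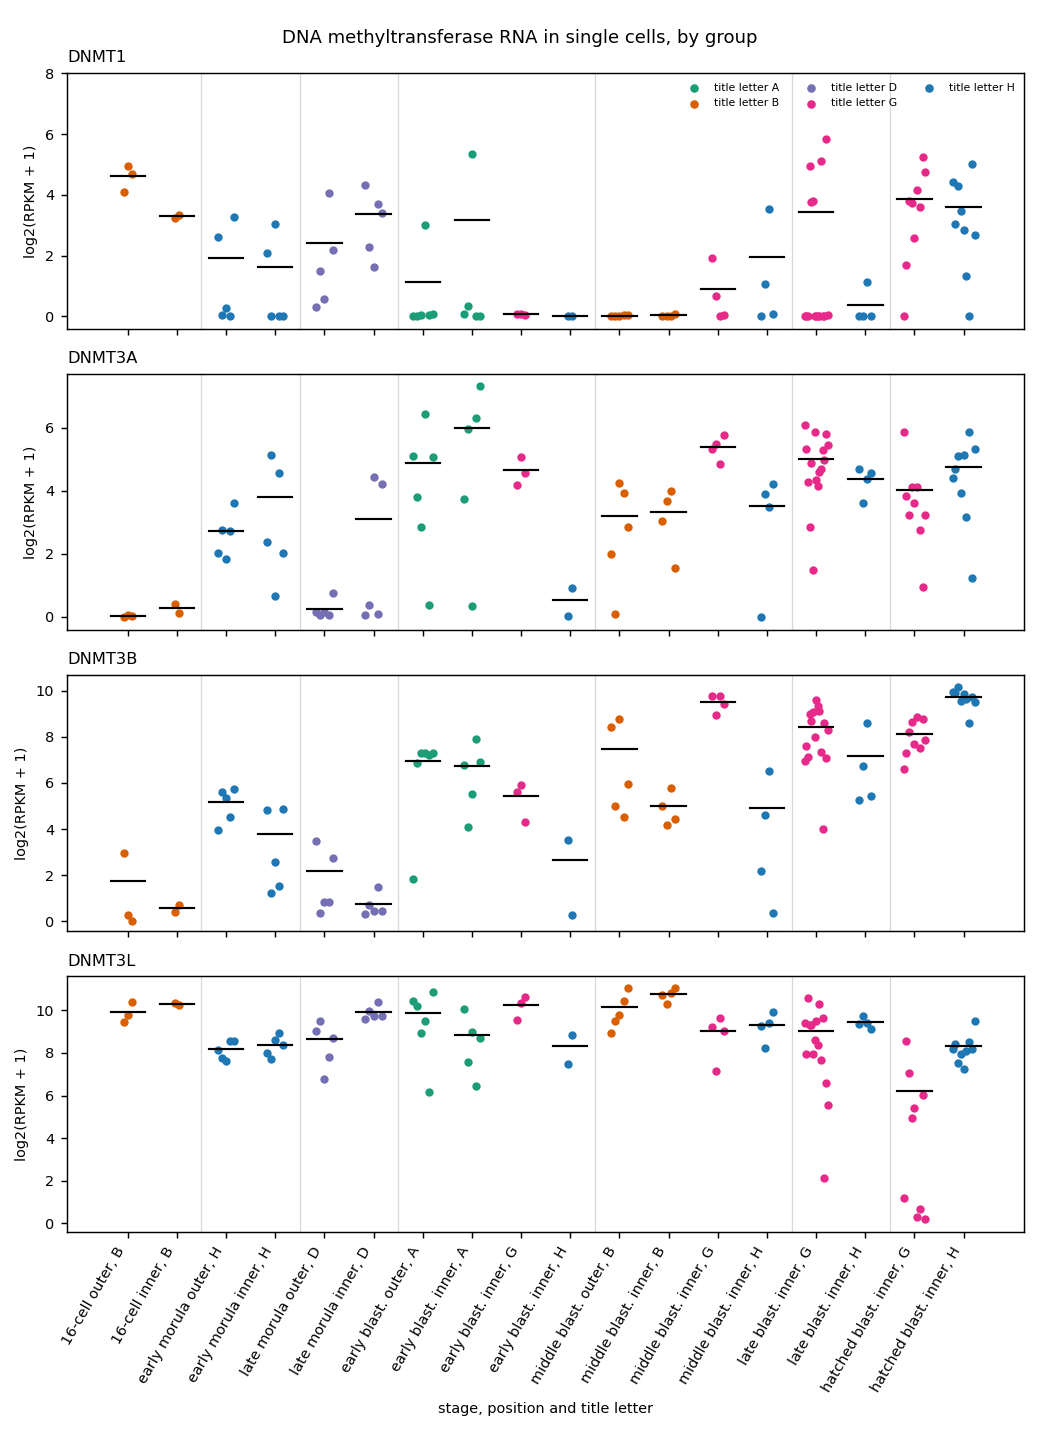
Level of each of the 4 members in every cell, as log2(RPKM + 1) on the vertical axis, against the 18 groups of stage, position and title letter on the horizontal axis. Each point is 1 cell, coloured by title letter, and each black bar is the group mean; DNMT1 lies near 0 in most early and middle blastocyst cells, DNMT3B has its highest mean, 836 RPKM, in hatched blastocysts of letter H, and DNMT3L is high in every group but the hatched blastocysts of letter G.

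DNMT3A, a de novo enzyme, was close to 0 at the 16-cell stage, with 0, 0.0534 and 0.0231 RPKM in the outer and 0.316 and 0.0997 in the inner cells. All 10 early morula cells were above these 5. Outer early morula cells held 3.06, 5.84, 2.59, 5.59 and 11.4 RPKM, and inner cells 4.16, 34.6, 0.576, 22.7 and 3.10. In late morulae the 5 outer cells were all below 1 RPKM (highest 0.706), as were 3 of the 5 inner cells, while LM_inner D-07 stood at 20.5 and LM_inner D-10 at 17.6. The mean of the inner cells, 7.71 (SD 10.4), rests on that pair.

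The highest DNMT3A mean was that of inner early blastocyst cells of letter A, 62.7 RPKM (SD 63.8, n = 5), with single cells at 12.4, 61.9, 0.286, 78.3 and 161. Outer cells of that stage averaged 28.7 (SD 31.2, n = 6), and inner cells of letter G held 17.2, 33.0 and 22.5. The 2 inner cells of letter H were below 1 RPKM, at 0.0210 and 0.880. Middle blastocyst cells of letter G held 39.4, 44.1, 28.0 and 54.2 RPKM, all above the 9 cells of letter B, which ran from 0.0579 to 18.0. The share of all genes that separate these letters in this way was not counted. In late blastocysts of letter G the 15 cells ran from 1.81 through a median of 28.4 to 67.2. Hatched blastocysts had medians of 11.3 RPKM in letter G and 25.1 in letter H. The mean of the G cells was 15.4 (SD 16.7) with HB_inner G-14 at 58.0, and 10.1 (SD 5.35) without it. DNMT3A reached 1 RPKM in 74 of the 95 cells.

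DNMT3B, the other de novo enzyme, had group means from 0.482 to 836 RPKM. At the 16-cell stage only 1 of 5 cells passed 1 RPKM, 16C_outer B-01 at 6.84. Outer early morula cells held 14.6, 48.3, 39.3, 22.1 and 53.1 RPKM, and inner cells 27.0, 1.35, 5.02, 1.87 and 28.0, so the positions overlapped. In late morulae the outer cells held 10.1, 0.283, 0.766, 0.784 and 5.65 RPKM and the highest inner cell was at 1.77. Early blastocysts of letter A averaged 122 RPKM (SD 60.8, n = 6) in outer and 105 (SD 85.2, n = 5) in inner cells. Of the 6 outer cells 5 lay between 115 and 157, and EB_outer A-02 was at 2.60. Inner cells of the other letters were lower on average, at 42.4 (SD 21.1, n = 3) in letter G, with cells at 48.5, 59.8 and 19.0, and at 10.4 and 0.228 in the 2 cells of letter H.

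For DNMT3B the middle blastocyst split by letter. Outer cells of letter B held 345, 30.8, 430, 21.9 and 61.5 RPKM, and inner cells of letter B 30.7, 17.3, 54.1 and 20.6. Inner cells of letter G held 873, 485, 862 and 690 RPKM. Inner cells of letter H held 3.52, 23.3, 91.1 and 0.3001. Each of the 4 cells of letter G was thus above all 8 other inner cells and all 5 outer cells of the stage. How many of all genes separate these cells in the same way was not counted, so this is a description of DNMT3B only. In late blastocysts the 15 cells of letter G ran from 15.0 through a median of 313 to 780 RPKM, and the 4 of letter H held 37.2, 106, 382 and 42.9. In hatched blastocysts the 9 cells of letter H ran from 392 through a median of 854 to 1141 RPKM, and the 9 of letter G from 96.2 through 234 to 457. The ranges met only between HB_inner H-11 at 392 and the G cells at 396, 443 and 457.

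DNMT3L, the cofactor, was the member of highest RPKM in 67 of the 95 cells, and it reached 5 RPKM in 90. The 16-cell stage held 690, 871 and 1346 RPKM in outer and 1323 and 1207 in inner cells. Early morulae were lower, with 279, 216, 199, 382 and 376 in outer and 253, 209, 394, 486 and 334 in inner cells. None of these 10 cells reached the level of a 16-cell stage cell. In late morulae the outer cells held 527, 736, 109, 221 and 416 RPKM and the inner cells 782, 1000, 843, 1366 and 849, so that every inner cell was above every outer cell.

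Blastocysts held the highest and the lowest DNMT3L levels. The highest group mean was that of inner middle blastocyst cells of letter B, 1722 RPKM (SD 365), with cells at 1719, 1245, 1796 and 2129. Early blastocyst cells of letter A ranged from 69.6 to 1889 in the outer and from 85.3 to 1059 in the inner position. Late blastocysts of letter G had a median of 385 with a range from 3.36 to 1551, and those of letter H held 664, 863, 682 and 554. The lowest of these, LB_inner G-16, and all the late cells of letter H have conflicting stage labels. In hatched blastocysts of letter H the 9 cells ran from 151 through a median of 291 to 733. In letter G they ran from 0.162 through 29.98 to 383, and 4 of the 9 were below 5 RPKM. These 4 held 6 to 44 reads of DNMT3L, so it was detected in each of the 95 cells.

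The order of the 18 groups was not sharp for any member. Of the 17 pairs of neighbouring means, the cells overlapped in all 17 for DNMT1, DNMT3B and DNMT3L and in 16 for DNMT3A. The exception lay between outer early morulae (mean 5.70 RPKM) and inner early blastocysts of letter H (0.450). For DNMT1 the 16-cell outer cells came first, followed by both hatched blastocyst groups, and for DNMT3B the hatched blastocysts of letter H came first, followed by middle blastocysts of letter G.

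Position was compared within a stage and letter. At the 16-cell stage 1 of the 2 measured members was higher in outer cells (24.0% of all measured genes were): DNMT1 by 1.32 log2 units. Cells that do not overlap in the outer direction were seen for 14.7% of genes at that stage. In early morulae DNMT3B was higher by 1.42 log2 units and DNMT3A lower, at -1.07, in outer cells, 2 of 3 measured members (25.3% of genes). The DNMT3A difference fell short of 2-fold without EM_outer H-02 (-0.93), EM_outer H-04 (-0.91), EM_inner H-03 (-0.37) or EM_inner H-05 (-0.79), and it was 0.35 when medians over cells replaced means. In late morulae 2 of 3 measured members were lower in outer cells (26.9% of genes), DNMT3A at -2.86 and DNMT3L at -1.27. For DNMT3L the positions did not overlap, which held for 1.81% of genes in that direction. DNMT3A came to -2.19 without LM_inner D-07, and with medians over cells to -0.22, since 3 of 5 inner cells were also below 1 RPKM. DNMT1 differed by -0.95, or by -2.02 without LM_outer D-06, and DNMT3L by -0.97 with median-of-ratios scaling.

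Position differences past 2-fold in early blastocysts hung on single cells. In early blastocysts of letter A 3 of the 4 members passed 2-fold (61.7% of genes), DNMT3L higher by 1.07 and DNMT1 and DNMT3A lower, at -2.04 and -1.10, in outer cells. The DNMT1 difference was 1.02 without EB_inner A-07 and -3.13 without EB_outer A-08. DNMT3A fell short of 2-fold without EB_outer A-05 (-0.96), EB_outer A-06 (-0.90), EB_outer A-09 (-0.85) or EB_inner A-10 (-0.40), and was -1.81 without EB_outer A-08. DNMT3L fell short without EB_outer A-02 (0.94), EB_outer A-10 (0.76), EB_inner A-05 (0.88) or EB_inner A-08 (0.81), and was 1.66 without EB_inner A-03. DNMT3L came to 0.18 without cells under 3000 genes and to 2.32 with median-of-ratios scaling. Inner cells of all letters pooled gave -0.42 for DNMT3A, 0.55 for DNMT3L and -1.19 for DNMT1, and the mean of log2 values gave -0.62 for DNMT1. DNMT3B differed by 0.22, well within the spread of the cells. In middle blastocysts of letter B 1 of 3 measured members passed 2-fold (36.3% of genes higher), DNMT3B at 178 RPKM (SD 194) in outer and 30.7 (SD 16.6) in inner cells, a difference of 2.50, or 1.87 without MB_outer B-03. With inner cells of all letters pooled, which adds the inner cells of letters G and H, it was -0.56.

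The early morula was set against the 16-cell stage with both positions weighted equally. All 4 members passed 2-fold (70.6% of genes): DNMT3A and DNMT3B were higher by 3.21 and 3.37 log2 units, and DNMT1 and DNMT3L lower, at -2.32 and -1.83. The cells of the stages did not overlap for DNMT3A, as for 13.4% of genes in that direction, nor for DNMT3L, as for 5.95%. DNMT3B was higher by 4.28 without 16C_outer B-01. The direction of all 4 was the same under each of the 3 other scalings of the cells. Stage and letter (H against B) cannot be told apart here.

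The late morula was set against the early morula, whose cells this comparison shares with the one before. All 4 passed 2-fold (72.6% of genes), with DNMT1 and DNMT3L higher by 1.18 and 1.13, and DNMT3A and DNMT3B lower, at -1.06 and -3.02. Scaling by the median of ratios shifted the median of all genes by 2.18 log2 units in this comparison and turned DNMT3A to 0.98, while DNMT3B came to -0.98, DNMT1 to 2.97 and DNMT3L to 3.54. DNMT1 came to 0.89 without LM_outer D-06 and 0.93 without LM_inner D-01. DNMT3A fell short of 2-fold without LM_inner D-01 (-0.81), LM_inner D-04 (-0.82), LM_inner D-08 (-0.81), EM_outer H-06 (-0.96), EM_inner H-03 (-0.63) or EM_inner H-05 (-0.88). Relative to the median of all genes DNMT3B was lower and DNMT1 and DNMT3L higher on both scales. A shift shared by all genes leaves such an order in place, so the second scale is no separate evidence. Letter (D against H) and depth moved with the stage: late morula cells had 3206 to 4448 genes at 1 RPKM and early morula cells 5610 to 7379. Their part in the result was not tested.

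Letter B holds 2 stages and allows a comparison within the letter. Middle blastocyst cells against the 16-cell stage, positions weighted equally, had 3 of 4 members past 2-fold (64.4% of genes). DNMT1 stood at a mean of 0.0195 RPKM against 16.2, a log2 difference of -4.07 that the added 1 RPKM holds down. DNMT3B was higher by 5.45 (104 against 1.42 RPKM) and DNMT3A by 3.11 (8.66 against 0.117). The cells did not overlap for DNMT1, as for 9.28% of genes in that direction, nor for DNMT3B, as for 1.95%. DNMT3B came to 6.35 without 16C_outer B-01. DNMT3L differed by 0.35, or by 2.26 with median-of-ratios scaling, which shifted the median of all genes by 1.65.

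Letter H spans the inner cells from the early morula to the hatched blastocyst. Between those ends 2 of 4 members were higher by 2-fold or more (26.4% of genes). DNMT3B went from 12.7 RPKM (SD 13.6, n = 5) to 836 (SD 210, n = 9), a difference of 5.94, and no cell of the 2 groups overlapped, as for 3.15% of genes in that direction. DNMT1 was higher by 1.98, or by 2.75 without EM_inner H-04. DNMT3A differed by 0.94, or by 1.64 without EM_inner H-03. DNMT3L differed by -0.07, with 335 RPKM (SD 111) at the start and 319 (SD 169) at the end.

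From the middle to the hatched blastocyst the letters differed in the direction of DNMT3B. In letter H all 4 members passed 2-fold (59.4% of genes): DNMT3B was higher by 4.78, DNMT1 by 1.64 and DNMT3A by 1.24, and DNMT3L was lower, at -1.01. Without MB_inner H-09 the DNMT3B difference was 6.38 and that of DNMT1 3.15. DNMT3A came to 0.85 without MB_inner H-03 and to 0.58 with median-of-ratios scaling. DNMT3L lay at the threshold: it was -0.74 without MB_inner H-10, -0.97 without MB_inner H-09, and between -0.99 and -0.92 without HB_inner H-01, H-05, H-07, H-09, H-10 or H-14. It was -0.66 with all cells at the same sum and -0.57 with the cells of conflicting labels moved to this stage. In letter G all 4 passed 2-fold as well (49.7% of genes), but DNMT3B stood at -1.41 and DNMT3A at -1.37 (-0.78 with the cells of conflicting labels moved), while DNMT1 was higher by 2.99, or by 3.61 without MB_inner G-02. DNMT3L stood at -2.81, or at -3.90 without HB_inner G-02. For DNMT3B the stages did not overlap in either letter, as for 4.76% of genes in the higher direction in letter H and 1.69% in the lower direction in letter G. With all letters pooled DNMT3B was higher by 1.08 and DNMT3A differed by 0.03. That pool also holds the 4 middle blastocyst inner cells of letter B (mean DNMT3B 30.7 RPKM), a letter with no hatched cells. It is therefore not a pool of letters G and H alone.

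Lineage markers moved with these differences. The 4 middle blastocyst cells of letter G had GATA4, a transcription factor of the hypoblast, at 103 to 141 RPKM, and 11 of 14 hypoblast markers averaged 1 RPKM or more, with a summed level of 519 to 4778. The 4 cells of letter H had GATA4 at 0 and a summed hypoblast level of 8.45 to 108. At the hatched blastocyst the 9 cells of letter G had POU5F1, a gene of pluripotent cells, at 0.489 to 10.7 RPKM and GATA2, a gene of trophectoderm, at 5.83 to 735, although the labels call them inner. The 9 cells of letter H had POU5F1 at 2237 to 4858 and NANOG at 285 to 1064. The summed trophectoderm level ran from 914 to 21022 in G and from 634 to 2020 in H, and the summed epiblast level from 2.11 to 778 and from 5929 to 8583. Markers of other cell types moved as well. The summed fibroblast level was 88.0 to 417 RPKM in hatched cells of letter H, nearly all of it COL1A2, a collagen gene. It was 0 to 0.0329 in inner early morula cells of letter H, 0 to 0.0445 in middle blastocyst cells of letter H, 1.203 to 118 in those of letter G and 0 to 1.93 in hatched cells of letter G. The summed oocyte level, mostly OOEP, a gene of the maternal complex of oocyte and early embryo, was 922 to 3838 in hatched cells of letter H and 0.0938 to 119 in those of letter G. It was 266 to 499 in the inner early morula cells, and 520 to 1817 and 66.5 to 262 in the middle blastocyst cells of letters H and G. The oocyte markers GDF9, ZP1, ZP2, ZP3, ZP4 and ZAR1 were at 0.0440 RPKM or less in each middle and hatched inner cell of G and H. ZAR1L reached 26.3 in middle and 38.2 in hatched cells of letter H, and 0.0428 at most in those of letter G. TLE6 reached 1.85 in middle cells of letter G, 0.256 in those of H and 1.60 in hatched cells of H, and was at 0 in hatched cells of G. The part of these markers and of cell lineage in the result was not tested, and letter and lineage cannot be told apart in hatched blastocysts.

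Hatched blastocyst cells of the letters were also set against each other. Of the 4 members 2 were lower in letter G (20.9% of genes): DNMT3L at -2.12 (72.4 against 319 RPKM) and DNMT3B at -1.61 (274 against 836). Without HB_inner G-02 the DNMT3L difference was -3.21. DNMT1 differed by 0.26 and DNMT3A by -0.71, both smaller than the spread of the cells. Moving the cells with conflicting labels to this stage gave -1.32 for DNMT3B and -1.74 for DNMT3L.

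**Figure D2:**
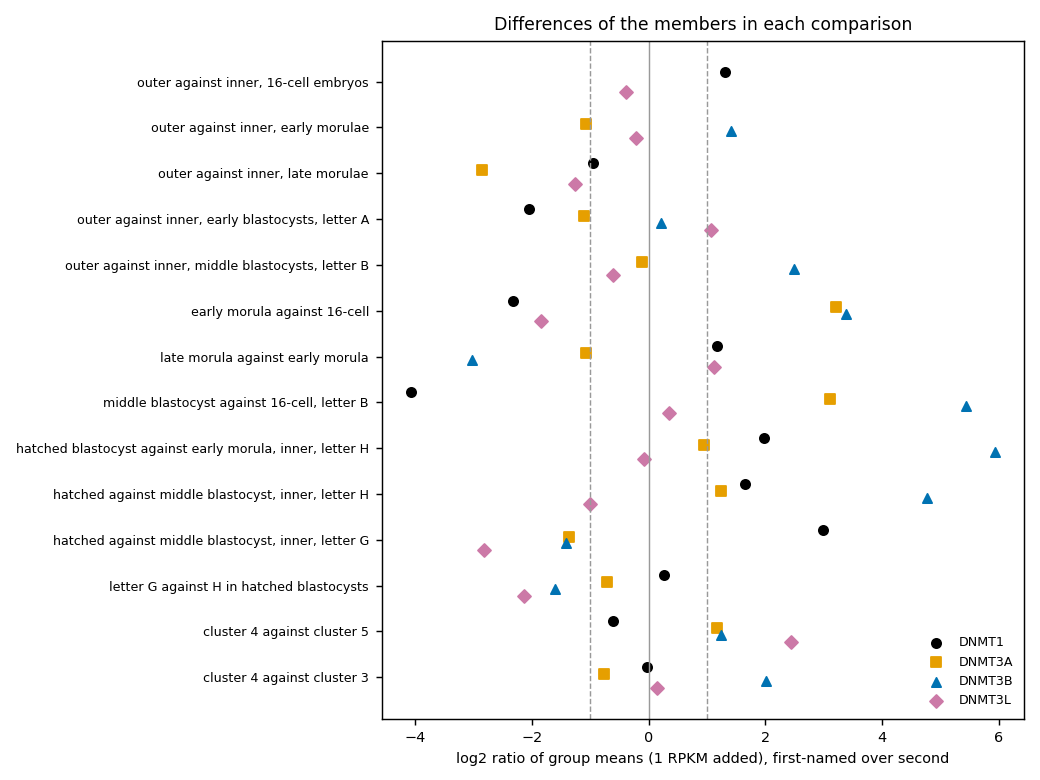
Log2 ratio of group means (1 RPKM added), first-named group over second, on the horizontal axis, for each measured member in each of the 14 comparisons listed on the vertical axis. Dashed lines mark 2-fold; DNMT3B has the largest positive ratios, 5.94 and 5.45, and lies on opposite sides of 0 for letters H and G between the middle and hatched blastocyst.

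The ratio of DNMT3L to DNMT3B within a cell is free of any scaling between cells. It was taken after the levels had been seen. Which of these genes is higher rests on the gene lengths behind RPKM. In MB_outer B-01, 11696 reads of DNMT3L and 18383 of DNMT3B gave 488 and 345 RPKM, so reads and RPKM put the genes in opposite order. DNMT3L exceeded DNMT3B in all 25 cells up to the late morula. The median ratio was 78.4 in inner early morulae and 2199 in inner late morulae. In early blastocysts DNMT3L exceeded DNMT3B in 14 of 16 cells, and in letter B middle blastocysts in all 9. The middle blastocyst cells of letter G were the earliest group with DNMT3B above DNMT3L in each cell, at ratios of 0.690, 0.295, 0.922 and 0.749, against 7.53 to 3223 in letter H. In late blastocysts of letter G the 15 cells split 9 to 6 around a median ratio of 1.26. In hatched blastocysts DNMT3B exceeded DNMT3L in 8 of 9 cells of each letter, at a median ratio of 0.0757 in G and 0.337 in H. No cell had DNMT1 or DNMT3A as its highest member, and DNMT3B was above DNMT3A in 83 of the 95.

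**Figure D3:**
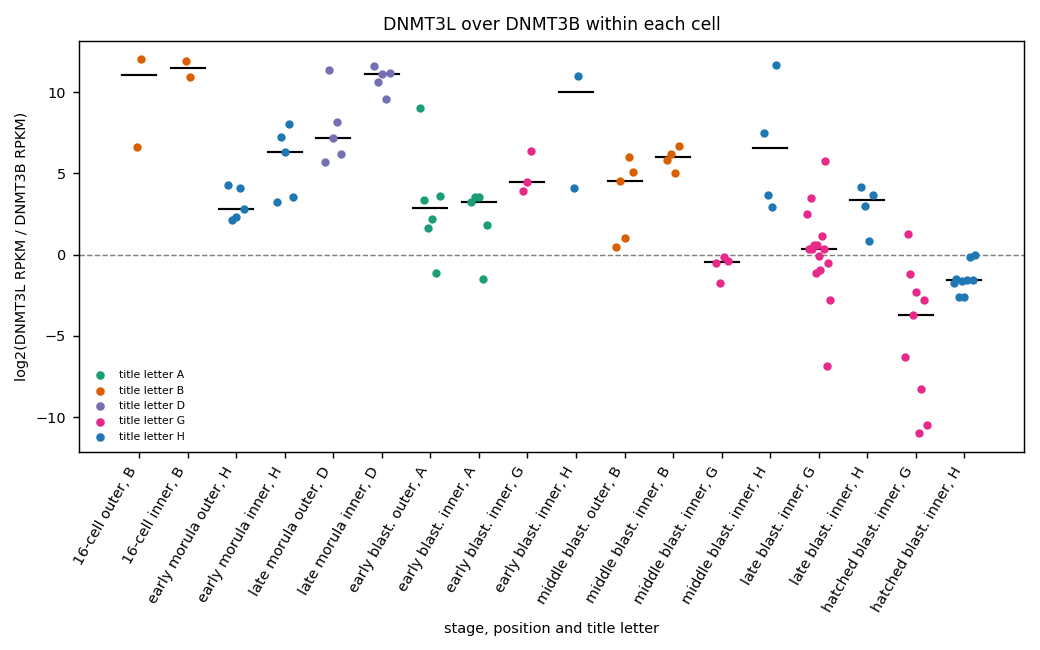
Log2 of the ratio of DNMT3L to DNMT3B RPKM within each cell on the vertical axis, against stage, position and title letter, for the 94 cells with DNMT3B above 0. Points are cells coloured by letter, bars are medians and the dashed line marks equal levels; all cells to the late morula lie above the line, and 16 of the 18 hatched blastocyst cells lie below it.

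The 70 blastocyst cells were grouped by other genes, with the members and the DNA methylation genes left out of the clustering. Cluster 4 joined 7 cells of late blastocysts, all letter G, to the 9 hatched cells of letter H. It had 6 of 12 epiblast markers raised but none among its 10 leading genes, so it keeps its number. Cluster 5 was 8 hatched cells of letter G with 8 of 14 trophectoderm markers raised and likewise none among its leading genes. Cluster 3, hypoblast-like by 10 of 12 markers raised and FN1 among its leading genes, held 8 late cells and 1 hatched cell of letter G. It is mixed, since 5 of its 9 cells are late blastocyst cells with conflicting labels that have GATA2 at 349 to 936 RPKM and GATA4 at 0.127 or less. Cluster 1, trophectoderm-like by 7 of 14 markers raised with KRT8 and SLC7A4 among its leading genes, held 20 outer and inner cells of letters A and B. It also had 5 of 12 epiblast markers raised, none of them among its leading genes, so its name rests on the naming rule. Cluster 2, which has no name, held 17 cells, and no early or middle blastocyst cell fell into clusters 3 to 5. No cluster could be called epiblast-like, so clusters were compared by number, a choice made after seeing the data.

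DNMT3B averaged 701 RPKM (SD 244, n = 16) in cluster 4, 296 (SD 121, n = 8) in cluster 5 and 174 (SD 114, n = 9) in cluster 3. DNMT3L averaged 445 (SD 290), 81.3 (SD 129) and 403 (SD 520) in the same order. High DNMT3B was not particular to cluster 4: the middle blastocyst cells of letter G, in cluster 2, averaged 728 RPKM (SD 182, n = 4). Against cluster 5, 3 of 4 members were higher in cluster 4 (19.9% of genes), DNMT3L by 2.44, DNMT3B by 1.24 and DNMT3A by 1.18, and the cells overlapped for each. DNMT3L came to 3.51 without HB_inner G-02, and with 4 clusters DNMT3A came to -0.14 and DNMT3L to 0.82. The comparison with cluster 3 uses the same cells of cluster 4. There 1 of 4 members was higher (27.5% of genes), DNMT3B by 2.01, which was 0.65 with median-of-ratios scaling. DNMT1 differed by -0.02, by 1.05 without LB_inner G-22 and by 3.43 without the cells of conflicting labels. In the 4 other cells of cluster 3 DNMT1 had 1 read in all, whereas LB_inner G-03 and LB_inner G-22 held 33.6 and 56.1 RPKM.

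Cluster 4 holds 2 stages. The 7 late cells averaged 528 RPKM of DNMT3B (SD 169) and 606 of DNMT3L (SD 344), and the 9 hatched cells 836 (SD 210) and 319 (SD 169). Both pairs of ranges overlapped. Letter (G for the late, H for the hatched cells) and stage cannot be told apart in this cluster.

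**Figure D4:**
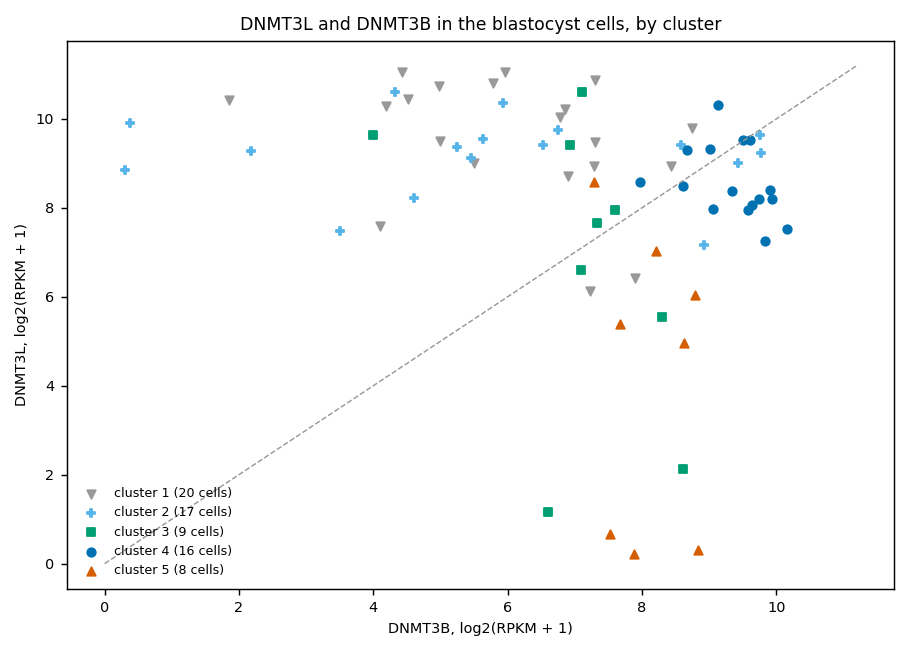
DNMT3L against DNMT3B in the 70 blastocyst cells, both as log2(RPKM + 1), with the symbol showing the cluster and the dashed line marking equal levels. Cluster 4 lies at the right, with DNMT3B between 251 and 1141 RPKM, and cluster 5 spreads downwards, with DNMT3L between 0.162 and 383 RPKM. The middle blastocyst cells of letter G, in cluster 2, lie at 485 to 873 RPKM of DNMT3B, and some cells of clusters 1, 3 and 5 also pass 251.

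The 5 cells with less than 5 RPKM of DNMT3L were all of letter G. Of these HB_inner G-20, HB_inner G-11, HB_inner G-15 and LB_inner G-16 had GATA2 at 417, 735, 140 and 349 RPKM and GATA4 at 0.127 or less. HB_inner G-14 had GATA4 at 242 and GATA2 at 5.83. DNMT3B in the same 5 cells ran from 96.2 to 457 RPKM, so low DNMT3L stood beside DNMT3B well above 5 RPKM. Only HB_inner G-14 of these cells had GATA4 raised. Other cells with either set of markers held more DNMT3L. LB_inner G-04, with GATA2 at 349 or more, stood at 803 RPKM. LB_inner G-17, with a summed hypoblast level of 4962 or more, stood at 1551.

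Members were then related to each other over single cells, on log2(RPKM + 1), as a description without a test. Over all 95 cells DNMT3A and DNMT3B had r = 0.54 (rho = 0.48), and the other pairs lay between -0.31 and 0.03. These points share libraries and stages. Among the 9 hatched cells of letter G DNMT1 and DNMT3B had r = 0.84 and rho = 0.83, and among the 9 of letter H r = 0.79 and rho = 0.65. In each letter 1 cell was lowest in both genes and may carry much of r. These were HB_inner G-14, of cluster 3, at 0 and 96.2 RPKM, and HB_inner H-11 at 0.0114 and 392. In the 15 late blastocyst cells of letter G that pair had r = 0.07. DNMT1 and DNMT3A had r = -0.79 (rho = -0.55) in hatched cells of letter G and -0.47 (rho = -0.57) in those of H. HB_inner G-14 and HB_inner H-11 may carry much of this r as well. Lowest in DNMT1, they were highest in DNMT3A of their letters, at 58.0 and 58.1 RPKM.

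The mean log2 level of each lineage's markers was set beside the members in the same way, a choice made after seeing the levels. In the 12 inner middle blastocyst cells DNMT3B followed the hypoblast markers with r = 0.92 (rho = 0.94) and ran against the epiblast markers with r = -0.54. Those 12 cells span letters B, G and H, which differ in DNMT3B, and no r within a letter was taken. In the 37 late and hatched cells DNMT3B ran against the hypoblast markers with r = -0.45 and with the epiblast markers at r = 0.42. DNMT3L had r = 0.59 with the epiblast and -0.49 with the trophectoderm markers in those 37 cells. Within the 24 of letter G alone the values for the epiblast markers were 0.50 for DNMT3B and 0.58 for DNMT3L. Within the 13 of letter H alone they were 0.13 and -0.39. What the cells of a letter share is not stated in the labels, and r over them describes these cells only.

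Other genes of DNA methylation came from a list of 41, of which 36 were in the table. HELLS, TET1, TRIM28, KDM1B and SETD2 were not analysed here. DPPA3, known to protect the maternal genome from loss of methylation and to bind UHRF1, averaged 2015 RPKM in early morulae and 47.6 at the 16-cell stage. It averaged 28.7 to 39.4 in late morula groups, and 4.18 to 4.75 in middle blastocysts of letter B against 564 and 904 in letters G and H. Stage and letter cannot be told apart in the first 2 of these contrasts. UHRF1 had group means from 0.0111 RPKM in inner early morula cells to 26.9 (SD 46.9) in outer middle blastocyst cells of letter B. PCNA, the replication clamp to which DNMT1 binds, was above 134 RPKM on average in every group and reached 1433 in hatched blastocysts of letter H.

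Early morulae against the 16-cell stage had 10 of 27 measured genes of the list higher and 7 lower, beside 70.6% of all genes past 2-fold, with a list median of 0.06 against 0.67 over all genes. DPPA3 (5.38), ZFP57 (3.88), which protects imprints, and the methionine adenosyltransferase regulator MAT2B (3.76) were highest, and CXXC1 (-3.97) was lowest. Late against early morulae had 5 of 26 higher and 11 lower (72.6% of all genes; list median -0.56, all genes -0.92), with DPPA3 at -5.85 and MBD3, a methyl-CpG-binding domain protein, at 2.26. Middle blastocysts of letter B against the 16-cell stage had 4 of 24 higher and 9 lower (64.4% of all genes; list median -0.44, all genes -0.46), led by GNMT at -5.48. Position gave 6 higher and 6 lower of 24 at the 16-cell stage, beside 44.6% of all genes past 2-fold. It gave 5 and 3 of 27 in early morulae, beside 25.3% (list median 0.02, all genes 0.10), and 3 and 4 of 21 in late morulae, beside 58.1% (-0.12 and 0.11). In early blastocysts of letter A it gave 3 and 6 of 21, beside 61.7% (-0.71 and -0.11), and in middle blastocysts of letter B 7 and 4 of 19, beside 61.0% (0.31 and 0.33).

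Of the removal genes on the list, 4 were measured in inner cells of letter H from the early morula to the hatched blastocyst, of which 1 was higher, 1 lower and the others under 2-fold. The same inner cells of letter H had 7 of 28 genes of the list higher and 5 lower (48.9% of all genes past 2-fold; median 0.02 over all genes). TDG, a glycosylase that excises oxidised methylcytosine, was at 3.33, UHRF1 at 3.20 and GADD45A at -4.75. From the middle to the hatched blastocyst 7 of 27 were higher and 2 lower in letter H, against 59.4% of all genes past 2-fold (list median 0.27, all genes 0.31), with GADD45A at -6.24. In letter G 7 of 28 were higher and 6 lower, against 49.7% (list median -0.06, all genes 0.15), with TDG at 2.09. Hatched cells of letter G against H had 7 of 29 higher and 9 lower, against 45.1% (list median -0.53, all genes 0.06). GADD45A was at 5.79, TET2, which oxidises methylcytosine, at 3.54 (20.3 RPKM, SD 20.5, against 0.83, SD 2.23) and TDG at 1.72, while DPPA3 was at -2.21 and ZFP57 at -1.95. Cluster 4 had 8 of 29 higher and 4 lower against cluster 5, beside 44.5% of all genes (list median 0.29, all genes -0.16). Against cluster 3 it had 9 of 30 higher and 8 lower, beside 52.1% (list median 0.32, all genes 0.10). TET2 was at -3.35 and -4.75.

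Genes most like each member were ranked by Pearson's r over the 18 groups on log2(mean + 1), among 7871 genes with a mean of 5 RPKM in at least 3 groups. The groups share letters and stages, so r describes these 18 points. DNMT3B was most like NGFRAP1 (r = 0.93, rho = 0.93), followed by C1orf115 (0.88), TXNDC12 (0.86), EEF1G (0.86) and ZNF395 (0.85). DNMT3A was most like IAH1 (0.90), PON2 (0.89), PRCP (0.87), UBAC2 (0.87) and FUCA2 (0.85), and to DNMT3B it had r = 0.80. DNMT3L was most like GAS6 (0.83), TRAP1 (0.81), TOP1MT (0.81), DAPK3 (0.79) and TUFM (0.79), of which TRAP1, TOP1MT and TUFM encode mitochondrial proteins. DNMT1 was most like C22orf29 (0.81), SPDYC (0.81), GMEB1 (0.75), LOH12CR1 (0.73) and DUSP14 (0.72). Ranked by r over the 95 cells, 2 of the 5 genes for DNMT3B, 1 for DNMT1 and 0 for DNMT3A and DNMT3L were again among the first 5.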

How the data were processed

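Expression was measured in 95 cells, 1 library each. The authors normalised the values before they were deposited, and these were read as RPKM, a unit the table does not name, in that they hold fractions, sum to between 557059 and 1000590 per cell, and lie on steps given by a gene factor and a cell factor. Whole reads within 0.05 were recovered from those steps for 11058 genes (68.9%), all 4 members among them; genes were kept because their values were whole, so this is no separate check. FastQC, TopHat2 version 2.1.0, HTSeq and DESeq2 are named, with no role or order, per the submitters' processing notes. Genome build, annotation and strand of counting are not given in the sources used here. No coordinates are printed, and antisense reads cannot be told apart. Of the 16049 symbols 14282 are in a RefSeq gene table of assembly T2T-MMU8v2.0, used for names and neighbours only. There DNMT3A overlaps 3 and DNMT3L 2 noncoding loci, and DNMT1 and DNMT3B overlap none. Each of the 95 columns carries the title of 1 sample.

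Group means, SD over cells and log2 ratios (1 RPKM added) were computed with Python 3.11.15, numpy 2.4.6, pandas 2.3.3 and SciPy 1.17.1 and checked on simulated data. The blastocyst cells were clustered (Ward, 10 principal components of 1000 variable genes at 10 RPKM or more in at least 5 cells, 5 clusters). A cluster was named where at least 50% of a lineage's detected markers lay 1 log2 unit or more above the other cells. At least 1 of these markers had to be among its 10 genes of largest fold, and no more of another lineage's. Lineage, oocyte, cumulus, fibroblast, blood and sperm markers were read. Genes named are the members, for each the 5 most alike, and the DNA methylation genes of largest ratio (up to 4 in each direction), besides lineage markers. DPPA3, UHRF1 and PCNA levels across groups were picked after their values were seen. The members and lists were chosen with earlier results of these data known. Alternatives were other pseudocounts, medians, depth weights, scalings, leaving out cells, pooled letters and other cluster numbers.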

Additional observations from a re-analysis of the deposited data

Results flagged for a closer look

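Among the 46 sets of 4 to 10 cells looked at (1 member in 1 group), 8 had a cell far from the others by Dixon's criterion. For normally distributed values chance alone passes it in about 1 of 20 groups. The RPKM values used here are skewed, with many near 0, so that rate does not apply. The 8 sets are therefore not read as more than chance would give. For DNMT1 these were LM_outer D-06 at 15.5 RPKM (the other 4 cells between 0.228 and 3.57), EB_outer A-08 at 7.01 (the other 5 at 0.0654 or less), EB_inner A-07 at 39.7 (the other 4 at 0.261 or less) and MB_inner H-09 at 10.5 (the other 3 at 1.07 or less). For DNMT3B it was EB_outer A-02 at 2.60 RPKM, below the other 5 at 115 to 157. For DNMT3A it was HB_inner G-14 at 58.0 RPKM, above the other 8 at 0.919 to 16.6. For DNMT3L they were HB_inner G-02 at 383 RPKM (the other 8 at 131 or less) and HB_inner H-15 at 733 (the other 8 between 151 and 361).

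DNMT3B between the middle and the hatched blastocyst stood at 4.78 log2 units in letter H and at -1.41 in letter G. All 9 hatched cells of letter H were above the 4 middle blastocyst cells of that letter, and all 9 of letter G were below theirs. This difference between the letters was not tested.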

How the results depend on the processing

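Of the values obtained by leaving out 1 cell, 763 stayed within the spread of the cells and 2 did not; DNMT1 by position in early blastocysts of letter A ran from -3.13 to 1.02, and DNMT3B from the middle to the hatched blastocyst in letter H from 4.38 to 6.38. With medians over cells the early morula position difference of DNMT3A was 0.35, the late morula one -0.22 and the early blastocyst one of DNMT1 -0.039; DNMT1 came to -4.01 for early morula against 16-cell, 2.60 for late against early morula and 2.95 for cluster 4 against cluster 3, and DNMT3B to 7.15 for hatched blastocyst against early morula. With 0.1 RPKM added, DNMT3A came to -4.68 (position, late morula), 5.45 (early morula against 16-cell) and 5.34 (middle blastocyst against 16-cell), and DNMT1 to -7.09 in the last; with 5 RPKM these last 3 were 1.49, 1.42 and -2.08. Median-of-ratios scaling gave -2.73 for DNMT3L in early morula against 16-cell; 2.97, 0.98, -0.98 and 3.54 for DNMT1, DNMT3A, DNMT3B and DNMT3L in late against early morula; -3.70, 4.61, 7.02 and 2.26 in middle blastocyst against 16-cell; and 0.65 for DNMT3B in cluster 4 against cluster 3. Scaling on genes above 0 in all cells gave 1.10 for DNMT3L in middle blastocyst against 16-cell. With letters pooled, the middle blastocyst position differences were -0.56 for DNMT3B and 0.23 for DNMT3L. Hatched against all middle blastocyst inner cells, those of letter B included, gave 1.08, 0.028 and -2.29 for DNMT3B, DNMT3A and DNMT3L. Pooled hatched blastocyst against early morula gave -0.77 for DNMT3L. The mean of log2 values gave 6.24 for DNMT3B from middle to hatched blastocyst in letter H. With 4 clusters DNMT3A was -0.14 against cluster 5, and without cells of conflicting labels DNMT1 was 3.43 against cluster 3. The cause of these shifts was not tested.

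Of 36 member differences past 2-fold, 18 stayed so in the same direction under every alternative run. The mean of log2 values left 6 of them under 2-fold, 5 RPKM added 5, median-of-ratios scaling 5 (and 1 turned), the other scalings 3 each, medians over cells 3 (and 1 turned), and pooled letters 3 of the 14 they touch (and 3 turned). The share of all genes past 2-fold, 25.3 to 72.6% over the comparisons, was 7.12 to 47.3% at 4-fold, 17.6 to 40.0% with no filter on low values and 31.6 to 71.997% with means of 1 RPKM or more. Cells are not replicates, so none of these ranges is an error of a group. No paired analysis was possible because no result comes from a test and the labels give the letters and numbers that titles of different groups share no meaning.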
